A study of Homo sapiens with 6 samples.

Results

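The Notch genes described here are 10 genes that were found by symbol in a count table of 31831 genes: the ligands JAG1, JAG2 and DLL1, the receptors NOTCH1, NOTCH2 and NOTCH3, the DNA-binding factor RBPJ, and the targets HES1, HES4 and HEY1. They were measured in HK-2, a human epithelial line of the proximal tubule. Both groups were kept in high glucose, given in the methods as 30 mM for 72 h. The control cells (HG-NC, n = 3 libraries) carried the empty control vector, and the compared cells (HG-OE, n = 3 libraries) overexpressed hnRNP-F, an RNA-binding protein, from a lentiviral vector. Poly(A) RNA was sequenced in directional libraries, and a comparison of the groups asked how excess hnRNP-F changed RNA levels in high glucose. The study calls its replicates biological, and its methods speak of parallel wells for each group. The labels do not say which libraries came from separate cultures, so the p-values measure the spread between these libraries, which may be technical. Cells in mannitol were not analysed here.

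Notch signaling passes between cells that touch. A ligand of the Jagged or Delta-like family on one cell binds a Notch receptor on the next, the receptor is cut first by an ADAM protease and then by gamma-secretase, and its freed intracellular domain enters the nucleus. There it binds RBPJ, which sits on DNA with corepressors in the absence of signal, and turns on genes of the HES and HEY families, which encode transcriptional repressors. In the kidney, the pathway is known for patterning the nephron and for its activity in injured tubules. RNA levels report on none of the protein steps.

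Among the 10 genes, JAG1 and HEY1 changed most, in opposite directions. JAG1 RNA fell to 0.492 of its HG-NC level in HG-OE cells, while HEY1 RNA rose to 1.82 times its HG-NC level. NOTCH1 and HES1 fell by less, NOTCH2 and RBPJ fell by a little, and JAG2, NOTCH3 and HES4 did not pass the test. DLL1 had almost no counts. Of the 9 genes that the low-count filter of edgeR kept, 6 passed the test (adjusted p under 0.05 by the quasi-likelihood method of edgeR, with Benjamini-Hochberg adjustment over 17142 genes), HEY1 higher and 5 lower. Of all genes tested, 51.8% passed, 25.9% higher and 25.9% lower, so that passing the test was common in this comparison. One member, JAG1, was a differentially expressed gene (DEG), which also requires a change of at least 2-fold, against 5.82% of all genes tested, 3.69% higher and 2.13% lower. Over the 9 genes the median log2 fold change was -0.13, beside 0.011 for all genes tested. The groups did not overlap in normalized level for 6 of the 9 genes, HEY1 higher and 5 lower, beside 59.0% of all genes, 29.6% higher and 29.4% lower.

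HNRNPF, the gene of hnRNP-F, was at 304, 319 and 311 CPM (counts scaled to library size, with TMM) in the HG-NC libraries (replicates 1, 2 and 3, in this order here and in what follows) and at 430, 452 and 423 CPM in the HG-OE libraries. The groups did not overlap, and the fold was 1.398. This is RNA counted to the human gene, and how much of the RNA from the vector it includes is not known. Totals were 25507595 to 29444841 counts per library, and the 10 Notch genes took 0.0754% to 0.0759% of the counts in HG-NC and 0.0517% to 0.0543% in HG-OE. Of the markers of proximal tubule, PAX8 was present in every library, but LRP2 and AQP1 were at or near 0. HG-OE replicate 3 stood apart. Its summed CPM was 47.7 for the 7 squamous markers in the table and 732 for the 8 liver markers, while the other HG-OE libraries reached at most 0.138 and 464 CPM. In HG-NC these sums were at most 0.118 and 278 CPM. Outside HG-OE replicate 3 the liver sum was nearly all SERPINA1. It was at 258 to 275 CPM in HG-NC and at 457, 458 and 395 CPM in HG-OE. ALB, AFP and APOB were at 149, 63.7 and 54.0 CPM in HG-OE replicate 3. Elsewhere they reached at most 2.79, 1.70 and 1.90 CPM, with 78 counts of ALB in HG-NC replicate 3. Of 6 general epithelial markers, KRT8 (293 to 299 CPM in HG-NC and 629 to 983 CPM in HG-OE), KRT18 and KRT7 were higher in every HG-OE library, while KRT19 (222 to 238 and 138 to 191 CPM) and EPCAM (101 to 111 and 67.0 to 79.2 CPM) were lower. CDH1 was at 13.1 CPM in HG-OE replicate 3 and at most 0.343 CPM in any other library. All 6 together summed to 885 to 900 CPM in HG-NC and 1180 to 1835 CPM in HG-OE, and the sum of the 10 proximal tubule markers in the table was 608 to 662 in HG-NC and 432 to 479 in HG-OE. Endothelial markers summed to 20.8 to 22.1 CPM in HG-NC and 16.6 to 21.8 CPM in HG-OE, fibroblast markers to 35.7 to 39.0 and 31.9 to 41.8 CPM, and leukocyte markers to at most 6.25 and 17.8 CPM. The part of these shifts in the changes of the Notch genes was not tested. Without HG-OE replicate 3, JAG1, NOTCH1, RBPJ and HES1 still passed lower and HEY1 higher. In a culture, fewer cells that express a gene and less RNA per cell cannot be told apart.

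Because RBPJ binds the letters TGGGAA, the bases before the start of transcription are shown for the ligand that fell and for the HES targets, with each match in capitals. Each stretch holds the 250 bases before the start of the gene in RefSeq (GRCh38.p14), 5′ to 3′ on the strand of the gene. They lie at chr20:10674000-10674249 (minus strand) for JAG1, chr3:194135898-194136147 (plus strand) for HES1 and chr1:1000098-1000347 (minus strand) for HES4.
JAG1: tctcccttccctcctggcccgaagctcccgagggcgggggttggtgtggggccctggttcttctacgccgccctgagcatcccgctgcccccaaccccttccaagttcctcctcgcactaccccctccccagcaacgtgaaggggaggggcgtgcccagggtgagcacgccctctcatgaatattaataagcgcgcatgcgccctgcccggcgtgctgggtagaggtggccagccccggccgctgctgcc
HES1: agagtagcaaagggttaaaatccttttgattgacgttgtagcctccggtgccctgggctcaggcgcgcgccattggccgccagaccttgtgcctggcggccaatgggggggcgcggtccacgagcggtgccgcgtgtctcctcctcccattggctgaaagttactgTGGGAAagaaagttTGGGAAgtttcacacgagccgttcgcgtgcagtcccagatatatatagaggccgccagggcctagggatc
HES4: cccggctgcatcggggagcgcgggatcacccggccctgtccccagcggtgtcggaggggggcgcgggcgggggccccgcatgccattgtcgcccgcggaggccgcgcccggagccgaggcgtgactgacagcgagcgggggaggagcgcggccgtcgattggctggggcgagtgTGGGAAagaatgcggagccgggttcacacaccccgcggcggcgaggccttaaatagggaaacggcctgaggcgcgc

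TGGGAA was searched on both strands of 12 such windows, which cover 8 of the 10 genes. HEY1 and DLL1 were not among them. HES1 holds 2 matches, which begin 84 and 70 bases before its start, and HES4 holds 1 match at 76 bases. Distances are from the RefSeq starts, which for HES4, JAG2, NOTCH2 and RBPJ lie inside the GENCODE gene spans given below. The span of HES4 ends at 1000172, so part of its window lies inside the span, with the match at the edge. Of the 5 RefSeq starts of RBPJ, 1 has 2 matches, at 115 bases on the opposite strand and at 72 bases on the strand of the gene. The windows of JAG1, JAG2, NOTCH1, NOTCH2 and NOTCH3 hold no match. Of 35116 windows of the same length over all genes, 20.8% hold at least 1 match and 2.90% hold 2 or more. A match is a description of the letters and says nothing of binding in these cells.

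JAG1 encodes Jagged1, a membrane ligand that binds Notch receptors on neighbouring cells. Its gene (ENSG00000101384.12) lies on chromosome 20 of GRCh38 from 10637684 to 10673999. JAG1 was at 380.1, 376.3 and 376.3 CPM in HG-NC and at 184.5, 188.0 and 185.3 CPM in HG-OE. The raw counts behind these levels were 9665, 10185 and 10518 in HG-NC and 5354, 5475 and 5426 in HG-OE. Libraries of each group lay close together, and the gap between the groups came to 49.9% of the HG-NC mean. The log2 fold change was -1.02 (standard error 0.0353, 95% interval -1.10 to -0.95, adjusted p = 1.70e-10 with edgeR), lower than in all but 2.08% of the genes tested. The interval includes a 2-fold change, so the data place JAG1 at the DEG threshold rather than well past it. With each library left out in turn, the log2 fold change stayed between -1.03 and -1.01, and on log2(FPKM + 1) it was -0.998, just under 2-fold. For the 84 well-counted genes within 10 Mb of JAG1, the median change was -0.31. With that median removed, JAG1 was at -0.71. An antisense gene that overlaps JAG1 by 1305 bases had at most 11 counts in a library.

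JAG2, the second Jagged ligand, lies on chromosome 14 (105140982 to 105168824). It was at 16.7, 18.4 and 18.1 CPM in HG-NC and 16.5, 19.4 and 17.1 CPM in HG-OE. The groups overlapped. The difference was -0.0040 on the log2 scale (standard error 0.0820 and adjusted p = 0.972 with edgeR), and its 95% interval from -0.18 to 0.17 leaves out a change of the size seen in JAG1. The sign of so small a value turned with the filter and with 4 of the 6 libraries left out, in no case with an adjusted p under 0.05. DLL1, a Delta-like ligand on chromosome 6 (170282206 to 170306565), had 2, 1 and 5 counts in HG-NC and 4, 0 and 17 counts in HG-OE. DLL1 was removed by the low-count filter. Tested without the filter, it did not pass (log2 fold change 1.22, adjusted p = 0.396 with edgeR). Its count of 0 allows up to 3 counts, and HG-OE replicate 3, the library that stood apart, held the highest count. FAM120B overlaps DLL1 on the opposite strand and had 343 to 473 counts per library.

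Levels of different genes were compared per transcript length, in FPKM, the authors' values per length and library size. JAG1 made up 93.9%, 93.4% and 93.4% of the summed FPKM of the 3 ligands in HG-NC and 88.3%, 87.0% and 87.6% in HG-OE. The rest was nearly all JAG2, whose mean share ± SD over the 3 libraries was 6.39% ± 0.334 in HG-NC and 12.1% ± 0.827 in HG-OE. For all ligands together the FPKM was 38.8 ± 0.121 in HG-NC and 20.2 ± 0.237 in HG-OE. In FPKM, JAG1 over JAG2 was 14.7 ± 0.846 in HG-NC and 7.26 ± 0.532 in HG-OE, without overlap (p = 0.1 by a two-sided exact permutation test, which can go no lower with 3 libraries a group, and adjusted p = 0.125 over 5 ratios). JAG1 was still the ligand with the highest level in every HG-OE library.

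**Figure D1:**
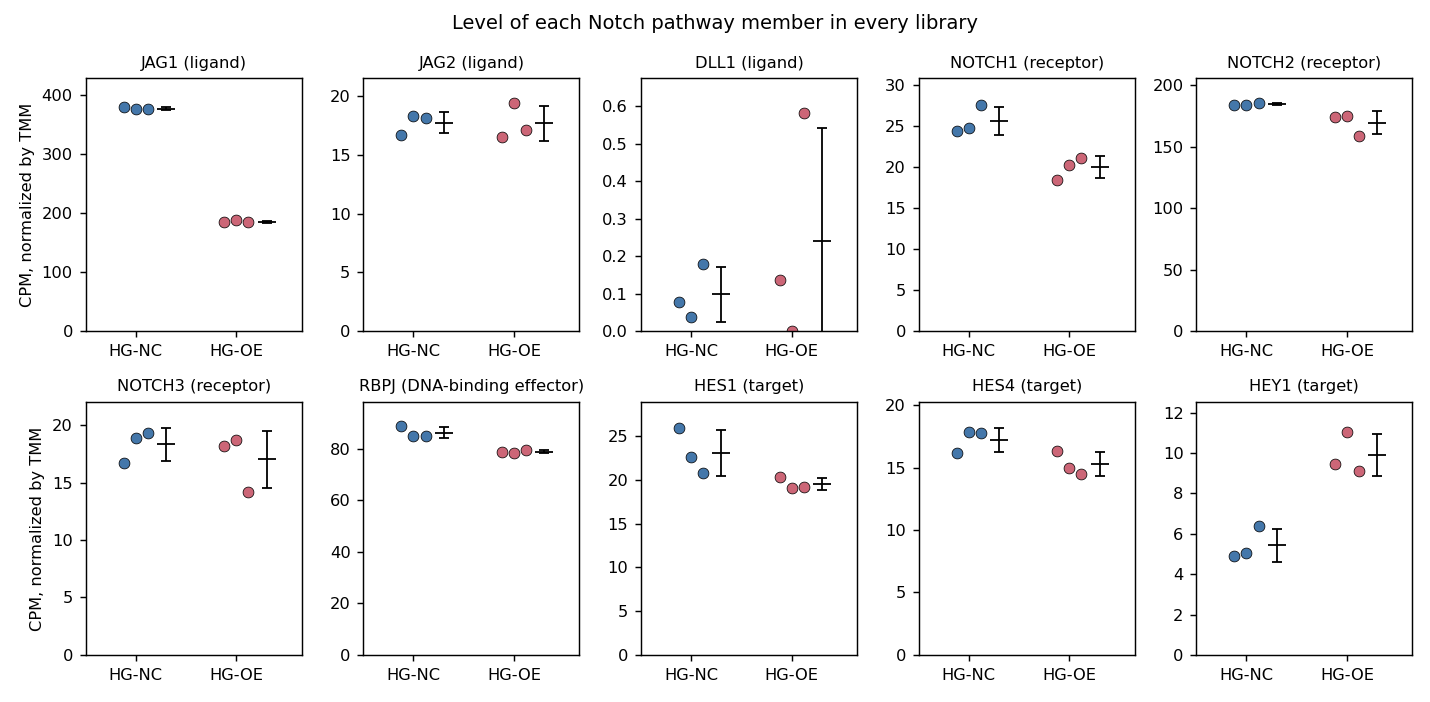
Normalized level (CPM) of each of the 10 Notch genes in the 3 HG-NC (blue) and 3 HG-OE (red) libraries, in replicate order from left to right, with the mean and SD as a bar beside the points. Each panel has its own vertical axis from 0, and the lower end of the DLL1 bar in HG-OE runs past the axis. JAG1 sits between 376.3 and 380.1 CPM in HG-NC and between 184.5 and 188.0 CPM in HG-OE, while HEY1 is the member whose HG-OE libraries all lie above HG-NC.

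NOTCH1, a receptor on chromosome 9 (136494433 to 136546048), was at 24.5, 24.8 and 27.6 CPM in HG-NC and at 18.5, 20.3 and 21.2 CPM in HG-OE. All HG-OE libraries lay below HG-NC. The log2 fold change was -0.36 (standard error 0.0737, 95% interval -0.52 to -0.20, adjusted p = 0.00105 with edgeR), or 0.780 of the HG-NC level. NOTCH1 passed in each of the 14 alternatives that gave a test, and with the neighbours' median removed, which gives no test, its value was -0.51. For its 157 neighbours the median was 0.15.

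NOTCH2, on chromosome 1 (119911553 to 120100779), was the receptor with the highest level. It was at 184.2, 184.2 and 185.6 CPM in HG-NC and at 174.6, 175.4 and 158.8 CPM in HG-OE. All HG-OE libraries were lower, and replicate 3 was the lowest of them. On the log2 scale NOTCH2 changed by -0.12 (standard error 0.0438, 95% interval -0.22 to -0.03, adjusted p = 0.0308 with edgeR). This call was lost without any one of HG-NC replicates 1, 2 and 3 (adjusted p = 0.0649, 0.0726 and 0.0972 with edgeR) and without HG-OE replicate 3, where the log2 fold change was -0.077 (adjusted p = 0.0929). It was also lost in the 3 limma fits of FPKM values (adjusted p = 0.0586, 0.0592 and 0.0867). NOTCH2 has near copies of its first exons, and reads that these share may not have been counted. Of the copies in the table, NOTCH2NLR had 83 to 129 counts and NOTCH2NLC 28 to 45 counts per library, against 4652 to 5187 for NOTCH2.

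NOTCH3, on chromosome 19 (15159038 to 15200995), was at 16.7, 18.9 and 19.3 CPM in HG-NC and at 18.2, 18.7 and 14.2 CPM in HG-OE. The groups overlapped, and the lowest value was that of HG-OE replicate 3. The log2 fold change was -0.11 (standard error 0.103, 95% interval -0.33 to 0.11, adjusted p = 0.411 with edgeR) and 0.0083 without HG-OE replicate 3.

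The receptors together changed little in makeup. NOTCH2 made up 69.9% ± 1.32 of their summed FPKM in HG-NC and 71.4% ± 0.544 in HG-OE, and NOTCH1 made up 15.4% ± 0.714 and 13.4% ± 1.53 (means with SD, 3 libraries each), with overlap of the groups in both. The summed receptor FPKM was 11.9 ± 0.312 in HG-NC and 10.5 ± 0.573 in HG-OE. JAG1 stood at 4.38 ± 0.0378 times the FPKM of NOTCH2 in HG-NC and at 2.35 ± 0.127 times in HG-OE (exact permutation test, p = 0.1, adjusted p = 0.125 over 5 ratios). The groups did not overlap in this ratio.

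RBPJ, the factor that carries the Notch signal to DNA, lies on chromosome 4 (26163455 to 26435131). It was at 88.6, 84.8 and 85.0 CPM in HG-NC and at 78.8, 78.3 and 79.4 CPM in HG-OE. All HG-OE libraries were lower, by a small amount. On the log2 scale RBPJ changed by -0.13 (standard error 0.0410, 95% interval -0.22 to -0.04, adjusted p = 0.0188 with edgeR), a level 0.916 of that in HG-NC. Its call was lost without HG-NC replicate 1 (adjusted p = 0.0654) or HG-OE replicate 2 (adjusted p = 0.0538 with edgeR). The median of the 22 neighbours of RBPJ was -0.23, and with this median removed the sign of RBPJ turned, to 0.10.

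**Figure D2:**
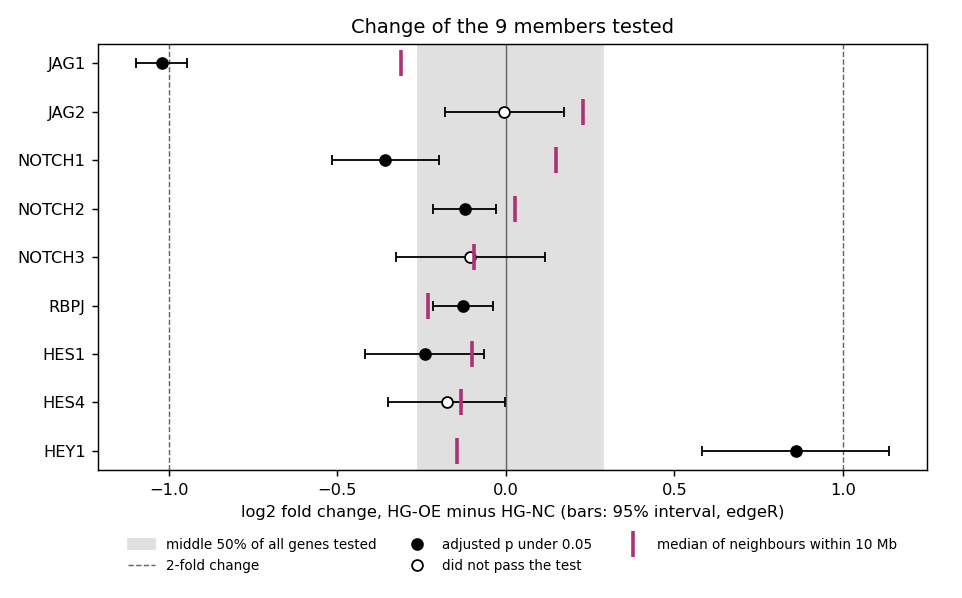
Log2 fold change of the 9 Notch genes tested, HG-OE minus HG-NC, as a point with its 95% interval (edgeR), filled where the adjusted p was under 0.05. Purple ticks give the median of the neighbouring genes and the grey band the middle 50% of all genes tested, from -0.26 to 0.29. JAG1, NOTCH1 and HEY1 lie outside the band.

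Of the targets, HEY1 rose, HES1 fell and HES4 did not pass the test. HEY1 encodes a repressor of the hairy family with an orange domain and lies on chromosome 8 (79762371 to 79767857). HEY1 was at 4.88, 5.06 and 6.37 CPM in HG-NC and at 9.48, 11.1 and 9.12 CPM in HG-OE, from 124, 137 and 178 counts in HG-NC and 275, 322 and 267 counts in HG-OE. The groups did not overlap, with all HG-OE values higher. The change on the log2 scale was 0.86 (standard error 0.129, 95% interval 0.58 to 1.14, adjusted p = 8.16e-05 with edgeR), higher than in 94.5% of the genes tested and under the 2-fold threshold. It ranged from 0.77 to 0.99 with each library left out, and on log2(FPKM + 1) it was lower, at 0.46. For its 48 neighbours the median was -0.15, and with this removed HEY1 was at 1.01, past 2-fold.

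HES1, the best known Notch target, lies on chromosome 3 (194136148 to 194138732) and has the pair of matches shown above. It was at 25.9, 22.6 and 20.8 CPM in HG-NC and at 20.3, 19.1 and 19.2 CPM in HG-OE. The groups did not overlap, but HG-NC replicate 3 lay close to HG-OE replicate 1. On the log2 scale HES1 changed by -0.24 (standard error 0.0822, 95% interval -0.42 to -0.06, adjusted p = 0.0249 with edgeR). The call was lost without HG-NC replicate 1, where the log2 fold change was -0.15 (adjusted p = 0.140), without HG-NC replicate 2 (adjusted p = 0.0590), without HG-OE replicate 2 (adjusted p = 0.0779), with DESeq2 (adjusted p = 0.0509) and with limma on log2(FPKM + 1) without a filter (adjusted p = 0.0895). With the median of its 76 neighbours removed, HES1 was at -0.14.

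HES4, a related repressor at the end of chromosome 1 (998962 to 1000172), was at 16.1, 17.8 and 17.8 CPM in HG-NC and at 16.3, 15.0 and 14.5 CPM in HG-OE. The groups overlapped by HG-NC replicate 1 and HG-OE replicate 1. The difference was -0.18 on the log2 scale (standard error 0.0806, 95% interval -0.35 to -0.0015, adjusted p = 0.0851 with edgeR). On log2(FPKM + 0.1) HES4 passed, at -0.19 (adjusted p = 0.0478 with limma).

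Of the summed FPKM of the 3 targets, HEY1 held 3.17%, 3.30% and 4.26% in HG-NC and 6.60%, 8.16% and 6.93% in HG-OE. HEY1 thus remained the smallest part, without overlap of the groups. HES4 held 55.8% ± 3.65 in HG-NC and 54.7% ± 0.876 in HG-OE, and HES1 held 40.6% ± 4.10 and 38.0% ± 0.765. The ratio of HES1 to HEY1 in FPKM was 11.6 ± 2.77 in HG-NC and 5.31 ± 0.615 in HG-OE, and that of HES4 to HEY1 was 15.8 ± 1.86 and 7.64 ± 0.909, both without overlap (exact permutation test, p = 0.1, adjusted p = 0.125 over 5 ratios). The targets summed to 24.7 ± 0.280 FPKM in HG-NC and 22.1 ± 1.12 in HG-OE.

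**Figure D3:**
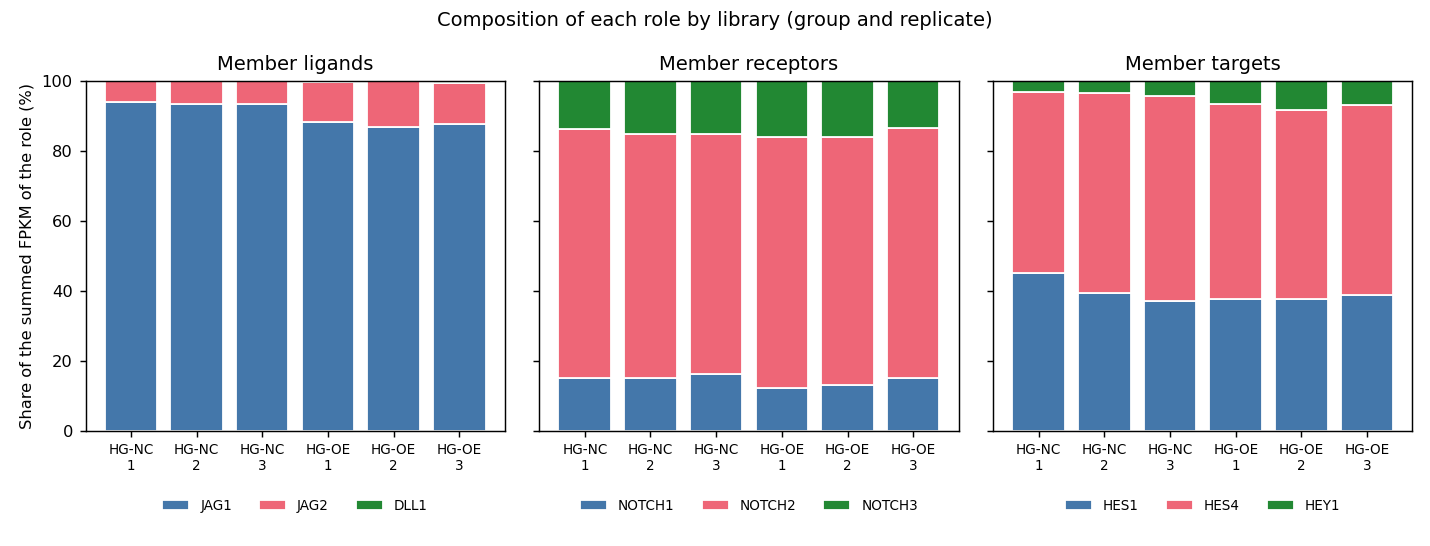
Share of each gene in the summed FPKM of the ligands, receptors and targets, in percent, for each of the 6 libraries. The JAG1 share is 93.4% to 93.9% in HG-NC and 87.0% to 88.3% in HG-OE, and the HEY1 share is 3.17% to 4.26% in HG-NC and 6.60% to 8.16% in HG-OE.

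Per length, JAG1 had the highest level of the 10 genes in both groups, at 36.3 ± 0.164 FPKM in HG-NC and 17.7 ± 0.0833 FPKM in HG-OE. It was followed in both groups by HES4 (13.8 and 12.1 FPKM), HES1 (10.0 and 8.39 FPKM), NOTCH2 (8.29 and 7.53 FPKM), RBPJ (7.14 and 6.46 FPKM) and JAG2 (2.48 and 2.45 FPKM). Down to JAG2, neighbours in the order did not overlap. NOTCH1 (1.83 ± 0.131 FPKM) and NOTCH3 (1.75 ± 0.138 FPKM) overlapped in HG-NC and stood above HEY1 (0.883 ± 0.137 FPKM). In HG-OE, HEY1 (1.59 ± 0.157 FPKM) overlapped with both NOTCH3 (1.60 ± 0.229 FPKM) and NOTCH1 (1.41 ± 0.0907 FPKM). DLL1 was last in both groups, at 0.0233 and 0.0533 FPKM.

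The genes whose pattern over the 6 libraries was most like that of JAG1 were SNHG12, a host gene of small nucleolar RNAs, PLOD2, a collagen lysyl hydroxylase, and SLC16A4, a transporter of the monocarboxylate family. Their log2 CPM, set to 0 at the HG-NC mean, differed from that of JAG1 by a root mean square of 0.0272, 0.0332 and 0.0369, out of 12356 genes with at least 100 counts per library on average. For NOTCH2 the nearest genes were TPBG, LSG1 and TP53BP2, and for HES1 they were DMD, SPRYD7 and PGGT1B, at 0.0123 to 0.0375. None of these is a Notch gene of the lists used here.

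Of 77 other genes of the pathway, 74 were in the table and 67 were tested. Of these, 36 (53.7%) passed the test, 19 higher and 17 lower, beside 51.8% of all genes, 25.9% higher and 25.9% lower. DEGs were 5, all of them higher, beside 5.82% of all genes, 3.69% higher and 2.13% lower. The counts by role that follow stand beside the same shares. The median log2 fold change was -0.015, and 59 of the 67 genes lay within 0.5 of 0. By the share that passed and by the median, these genes as a list thus stood near the background, while their 5 DEGs were all higher. With the neighbours' median removed, ADAM17 and AAK1, both at -0.50 in what follows, came to -0.22 each, and CCND1 came from 0.45 to 0.25. Among others, POFUT1 came to 0.053, POGLUT1 to -0.14 and DTX3L to -0.12, all smaller changes than before. Changes became larger for CREBBP (-0.55), NUMB (-0.31) and XXYLT1 (0.31).

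The other ligands and receptors tested, DLL3, DLK2 and NOTCH4, did not pass the test, with log2 fold changes of -0.23, 0.27 and 0.36. Without HG-OE replicate 3, DLK2 passed at 0.38 (adjusted p = 0.0215 with edgeR). DLL3 also passed in 1 of the 14 alternatives that gave a test. Among the 7 genes of glycosylation, which set how well receptors bind their ligands, 3 rose and 2 fell. GXYLT2, which adds xylose to sugar chains on the receptors, rose from 57, 69 and 62 counts in HG-NC to 224, 217 and 184 counts in HG-OE (log2 fold change 1.61, standard error 0.144, adjusted p = 7.43e-07 with edgeR). On log2(FPKM + 1) GXYLT2 was at 0.79, under 2-fold. POFUT1, which adds fucose to the receptors, rose by 0.21, and POGLUT1, which adds glucose, changed by -0.29 on the log2 scale. The others that passed were XXYLT1 at 0.20 and RFNG at -0.24, named like the further genes below after their values were seen. The call of RFNG was lost without HG-NC replicates 2 or 3 or HG-OE replicates 1 or 3 (adjusted p = 0.0571 to 0.133 with edgeR) and in the 3 limma fits (0.0789 to 0.160).

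Among the 8 genes of receptor cleavage, 3 rose and 2 fell. FURIN, the protease of the first cut during receptor maturation, was at 60.6, 66.6 and 63.3 CPM in HG-NC and at 89.8, 95.0 and 124.8 CPM in HG-OE (log2 fold change 0.70, adjusted p = 3.39e-05 with edgeR). HG-OE replicate 3 was the highest, and without it the log2 fold change was 0.54. ADAM17, one of the proteases of the cut at the cell surface, was at 88.0 ± 5.67 CPM in HG-NC and at 62.3 ± 2.12 CPM in HG-OE (log2 fold change -0.50, adjusted p = 3.26e-06). ADAM10, the main protease of that cut after ligand binding, was at -0.13, and its call was lost without HG-NC replicates 1 or 3 or HG-OE replicate 2 (adjusted p = 0.125, 0.0666 and 0.0996 with edgeR) and in the 3 limma fits (0.0535 to 0.0874). NCSTN and APH1A, subunits of gamma-secretase, were both at 0.22. None of these 5 genes had overlapping groups, as was so for 59.0% of all genes. FURIN, ADAM17, ADAM10 and NCSTN were named on that condition. For ADAM10 the lowest HG-NC library was at 184.6 CPM and the highest HG-OE library at 180.4 CPM.

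Among the 15 genes of endocytosis and turnover, 7 rose and 4 fell, and 3 were DEGs. NEURL1, a ubiquitin ligase of Notch ligands, had 1, 1 and 2 counts in HG-NC and 31, 26 and 26 counts in HG-OE. DTX1 and DTX4 belong to the Deltex family of ubiquitin ligases that act on the receptors. DTX1 had 34, 30 and 24 counts in HG-NC and 87, 82 and 90 in HG-OE (log2 fold change 1.43, adjusted p = 7.69e-05), and DTX4 had 201, 233 and 251 counts in HG-NC and 462, 501 and 551 in HG-OE (log2 fold change 1.03, adjusted p = 9.13e-07 with edgeR). DTX4 came under 2-fold without HG-NC replicate 1 (0.98) or HG-OE replicate 3 (0.96), on log2(FPKM + 0.1) (0.95) and log2(FPKM + 1) (0.63), and with the neighbours' median removed (0.81). DTX1 also came under 2-fold on log2(FPKM + 1), at 0.38. EPN1, an adaptor of endocytosis, rose by 0.34, while AAK1, a kinase of the same route, and DTX3L were at -0.50 and -0.26 on the log2 scale. Smaller values belonged to NUMBL, ITCH and MIB1 (0.21, 0.18 and 0.17), and to FBXW7 and NUMB (-0.22 and -0.20), an inhibitor of the receptors. Calls were lost for MIB1 without HG-NC replicates 2 or 3 or HG-OE replicate 1 (adjusted p = 0.0715 to 0.109) and for FBXW7 without HG-NC replicates 1 or 3 or HG-OE replicates 1 or 2 (adjusted p = 0.0741 to 0.189 with edgeR). Both were also lost with DESeq2 (0.0643 and 0.105) and in the 3 limma fits (0.0984 to 0.154 for MIB1 and 0.111 to 0.212 for FBXW7).

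Of the 9 coactivators tested, 1 rose and 1 fell. The gene that fell was CREBBP, a histone acetyltransferase, at -0.32, and the gene that rose was KAT2B, another acetyltransferase, at 0.34. The call of KAT2B was lost without HG-NC replicates 2 or 3 or HG-OE replicates 1 or 2 (adjusted p = 0.0966 to 0.165 with edgeR), without a low-count filter (0.0989), with DESeq2 (0.128) and in the 3 limma fits (0.0858 to 0.184). With the neighbours' median removed, KAT2B was at 0.049. Of the 15 corepressors, 3 rose and 5 fell. TLE2, a corepressor of the Groucho family that HES proteins recruit, had 64, 66 and 63 counts in HG-NC and 129, 143 and 156 in HG-OE (log2 fold change 1.03, adjusted p = 6.45e-05 with edgeR) and came under 2-fold without HG-NC replicate 3 (0.99) or HG-OE replicate 3 (0.96) and on log2(FPKM + 0.1) (0.89) and log2(FPKM + 1) (0.43). TLE4 and TLE3 of the same Groucho family were at -0.50 and -0.45. HDAC1 was at 0.20 and HDAC2 at -0.33, NCOR1 at -0.30 and CTBP2 at -0.24. The call of NCOR1 was lost without HG-NC replicates 1 or 2 or HG-OE replicates 1 or 2 (adjusted p = 0.0663 to 0.104 with edgeR), with DESeq2 (0.109) and in the 3 limma fits (0.0685 to 0.146). The TLE genes thus did not move together. HDAC1 and HDAC2 moved in opposite directions, but with the neighbours' median removed they were at 0.25 and 0.079.

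Of 10 other targets, 2 rose and 3 fell. MYC, a driver of growth, went from 528 ± 7.56 CPM in HG-NC to 343 ± 13.2 CPM in HG-OE, which is -0.62 on the log2 scale (adjusted p = 2.74e-08 with edgeR). CDKN1A and CCND1, which act on the cell cycle in opposite ways, were at 0.45 each. HES7 was at -0.40 (adjusted p = 0.0218), and its call was lost without HG-NC replicate 1 or 2 (adjusted p = 0.0792 and 0.0878 with edgeR) and with DESeq2 (adjusted p = 0.0823). SNAI2, a transcription factor of cell migration, was at -0.28. These targets thus changed in both directions, as did all genes tested, of which 25.9% passed higher and 25.9% lower. Of the members' targets, HEY1 passed higher and HES1 lower. The HES1 call was lost in 5 of the 14 alternatives that gave a test.

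**Figure D4:**
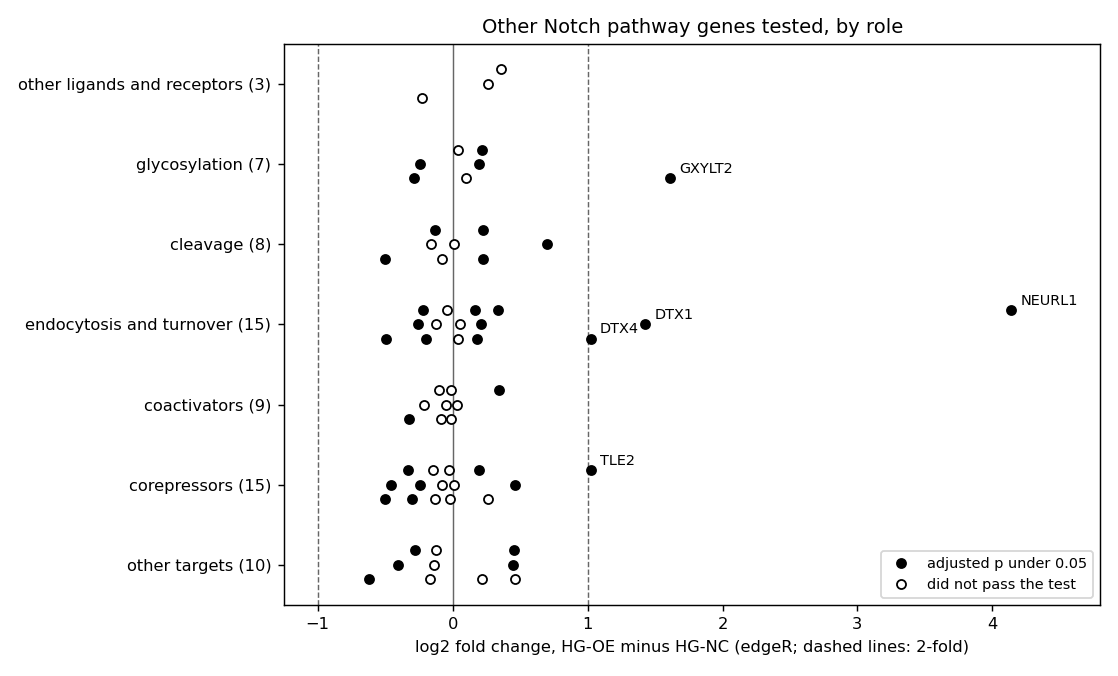
Log2 fold change (HG-OE minus HG-NC, edgeR) of the 67 other pathway genes tested, 1 point per gene, by role with the number of genes tested, filled where the adjusted p was under 0.05. The 5 labelled genes are the DEGs and all lie at the right. The position of NEURL1, which had at most 2 counts in an HG-NC library, depends on the prior count and is no measure of its fold.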

How the data were processed

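RNA-seq of HK-2 cells in high glucose, 3 HG-NC and 3 HG-OE libraries, was grouped by the labels, while the glucose level and time come from the study's methods. The submitters' processing notes name GRCh38 and HISAT2. The authors trimmed the reads and deposited counts of uniquely mapped reads per gene, without normalization, and FPKM values rounded to 2 decimals. The annotation release and counting tool are not given in the sources used here. ComBat_seq is named for batch correction, and whether it entered these tables is not stated. Columns of other samples or of the authors' own comparisons were not used.

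The counts were fitted with edgeR 4.0.16 in R 4.3.3 (TMM, default low-count filter, quasi-likelihood test, Benjamini-Hochberg adjustment), which kept 17142 of 31831 genes. DEGs had an adjusted p under 0.05 and at least a 2-fold change. Single values and shares were compared by an exact two-sided permutation test (scipy 1.17.1), whose smallest p is 0.1. A count of 0 allows up to 3 counts, which covers counting error only. Positions come from GENCODE release 44 and promoters from RefSeq. Neighbours are genes within 10 Mb with a mean of at least 100 counts.

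The members and lists were chosen with earlier results of these data known. Beside the members, pathway genes were named if they were DEGs or, in each role, the 2 that rose most and the 2 that fell most among those that passed the test with at least 100 mean counts and no overlap of the groups. The values of 1 gene so named are not reported here. The genes most like the ligand, receptor and target with the highest mean CPM are the 3 with the smallest root mean square difference. Alternatives were the size factors of DESeq2 1.42.0, its Wald test, no filter, at least 10 counts in every library, a replicate block, each library left out, limma 3.58.1 on log2(FPKM + 1) and log2(FPKM + 0.1) with a mean FPKM of at least 0.1, on log2(FPKM + 1) without that filter, and the neighbours' median removed. Steps were tested on simulated data.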

Additional observations from a re-analysis of the deposited data

How the results depend on the processing

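JAG1, HEY1 and NOTCH1 kept their directions, and their adjusted p was under 0.05 in each of the 14 alternatives that gave a test. Removing the neighbours' median shifts a value and gives no test. All genes tested gave 997 DEGs (632 higher and 365 lower), 1539 without a low-count filter (1103 higher and 436 lower), 617 with at least 10 counts in every library (370 higher and 247 lower), 144 on log2(FPKM + 1) (76 higher and 68 lower), 138 on the same scale without a filter (70 higher and 68 lower), and 989 to 1124 with each library left out. Of the members, 6 passed the test, 3 to 6 with each library left out, with 3 without HG-NC replicate 1. No member was a DEG on log2(FPKM + 1), with or without the filter (0 in each, against 1), since JAG1 was at -0.998 there, while 5 and 4 members passed the test by limma. With the neighbours' median removed, only the fold was set anew, and 1 member was past 2-fold, HEY1 in place of JAG1, while HNRNPF came to 0.39. JAG2 turned to 0.0034 with at least 10 counts in every library and ranged from -0.075 to 0.041 with each library left out (0.023, 0.016, 0.041 and 0.018 where it turned). NOTCH3 turned to 0.0083 without HG-OE replicate 3 (-0.18 to 0.0083 with each library left out), and with the neighbours' median removed RBPJ turned to 0.10, ITCH to -0.0085, FBXW7 to 0.11 and HDAC2 to 0.079. The JAG1 share of the ligands changed by -5.93 percentage points in FPKM and by -4.28 in counts (-6.29 to -5.59 with each library left out), the HEY1 share of the targets by 3.65 and 10.2 (3.19 to 3.99), and the NOTCH2 share of the receptors by 1.55 (0.908 to 2.23).

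The replicate numbers did not pair the libraries. Deviations of libraries with the same number correlated at -0.027, 0.030 and -0.00099 across 17142 genes, which are not independent. With the number as a replicate block, 6 members passed the test and the median of the members was -0.13, and no call of a member changed. The depth limits what can be said of DLL1, whose counts were at most 17 in a library.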

Other observations

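Among the 77 other pathway genes, 7 were in the table but removed by the low-count filter, and 5 of these had their highest count in HG-OE replicate 3, with 15 to 27 counts there and at most 11 counts in any other library. DLL4, the Delta-like ligand of endothelium, had 2, 3 and 2 counts in HG-NC and 9, 7 and 18 in HG-OE. MFNG, a glycosyltransferase of Notch receptors, had 4, 7 and 6 counts in HG-NC and 3, 6 and 27 in HG-OE. APH1B, a subunit of gamma-secretase, had 5, 1 and 3 counts in HG-NC and 4, 5 and 23 in HG-OE. MAML3, a coactivator of the Notch complex, had 0 counts in all HG-NC libraries and 1, 0 and 15 in HG-OE. HES2 had 6, 11 and 8 counts in HG-NC and 5, 7 and 27 in HG-OE. DLL1 had its highest count in HG-OE replicate 3 as well. Except for DLL4, HG-OE replicates 1 and 2 lay at or near the counts of HG-NC for these genes. Without the low-count filter, DLL4 (adjusted p = 0.0140) and MAML3 (adjusted p = 0.0227) passed with edgeR, and MFNG, APH1B and HES2 did not (adjusted p = 0.0991 to 0.559). DLL4 did not pass with DESeq2 (adjusted p = 0.0645), and neither DLL4 nor MAML3 passed with limma on log2(FPKM + 1) without a filter (adjusted p = 0.0981 and 0.512).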
